A study of Homo sapiens with 12 samples.

Results

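The genes described here encode core proteins of the PI3K, AKT and mTOR pathway. They are the class I PI3K catalytic subunits PIK3CA, PIK3CB and PIK3CD, the regulatory subunits PIK3R1 and PIK3R2, the kinases AKT1 and AKT2, and MTOR. These 8 genes were taken by name from the 29696 genes of the expression table, by a rule that used no measured value. All peaks assigned to the same genes were taken from the m6A peak lists. The cells were A375, a human melanoma line, in which ALKBH5, an enzyme that removes m6A from RNA, had been knocked down. One group carried shALKBH5 by lentivirus and has the genotype label ALKBH5 knockdown, while the other, shCtrl, received a control lentivirus that the study calls Scramble and is labelled wild type. Each group had 3 input libraries of fragmented poly(A) RNA and 3 libraries of the same kind of RNA after immunoprecipitation (IP) with an m6A antibody. Both groups therefore went through viral infection, and the sources used here do not say which ALKBH5 hairpin the sequenced cells carried. The study's methods say in general that experiments were done independently and repeated, but neither they nor the labels say for these libraries that the replicates were separate cultures. The p-values below measure the spread between these libraries, which may be technical.

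Class I PI3K is a dimer of a regulatory and a catalytic subunit that is recruited to activated receptors and phosphorylates a membrane lipid. The lipid product draws AKT to the membrane, where it is activated, and AKT relieves the inhibition of mTOR, a kinase that couples growth signals and nutrients to protein synthesis and restrains autophagy. The pathway is regulated largely by phosphorylation and lipid levels, which RNA abundance does not measure. In melanoma it often acts beside the MAPK pathway, which is driven in many tumours by mutant BRAF.

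Expression was given as FPKM (fragments per length of transcript and per size of library) for each input library. No read counts were used, and depth is unknown. In bulk RNA, fewer cells of one type and less RNA per cell cannot be told apart. The FPKM of all genes added up to 221946 to 223231 in shALKBH5 and 212760 to 218966 in shCtrl. The targeted gene, ALKBH5, lay between 3.12 and 3.92 FPKM in shALKBH5 and between 17.6 and 19.3 FPKM in shCtrl, with no overlap. The melanoma label was checked against 8 melanocyte lineage genes, of which 7 were in the table. SOX10 was at 179 to 192 FPKM in all 6 libraries, while the pigment genes PMEL, DCT and TYR had group means of 0.611 FPKM or less. The summed level of these 7 genes was 267 to 271 FPKM in shALKBH5 and 216 to 226 FPKM in shCtrl, a difference carried mostly by S100B at 82.1 ± 3.03 against 32.9 ± 1.35 FPKM (SD, n = 3). Markers of other cell types were low: summed over 4 fibroblast genes, 2.91 to 4.07 against 1.77 to 1.89 FPKM, and over 3 endothelial genes, 0.242 to 0.248 against 0.299 to 0.388 FPKM. Of 4 keratinocyte genes, 2 were in the table, with sums of 10.6 to 11.5 against 8.9 to 9.53 FPKM carried by KRT10, while KRT14 was lower, at 0.369 ± 0.144 against 0.961 ± 0.122 FPKM (SD, n = 3). CD14, the 1 immune gene found, stayed at or under 0.211 FPKM. The part of these markers in the results below was not tested.

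Between the groups, the pathway genes did not move as a block. PIK3CD and PIK3R1 rose in shALKBH5 cells, MTOR fell, and AKT1 fell by a small amount that depended on the settings of the test. PIK3R2, AKT2 and PIK3CB did not pass the threshold, and PIK3CA, at a level too low for the test, was lower in every shALKBH5 library. Differences were tested two-sided with limma on log2(FPKM + 0.1). The test took in the 12985 genes whose mean reached 0.5 FPKM, and p-values were adjusted over all of them by the Benjamini-Hochberg method. Of the 7 genes of the pathway core that reached this mean, 4 had an adjusted p-value under 0.05 (57.1%), 2 higher and 2 lower. Over all tested genes 61% were called, 34.7% as higher and 26.2% as lower, so the share among the 7 genes lay close to that of the whole table. The split of all genes by direction depended on scaling, with 4509 higher and 3408 lower as given and 3788 higher and 3898 lower after rescaling each library by its median ratio. Leaving out single libraries gave 3 to 5 calls among the 7. Groups without overlap were found for 4 of the 7 genes, beside 67% of all tested genes, and for 5 of the 8 listed genes, beside 39.7% of all listed genes. A log2 fold change of at least 0.75 in size together with an adjusted p-value under 0.05 was reached by PIK3CD and PIK3R1, 2 of the 7 genes, and by 19.6% of all tested genes.

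**Figure D1:**
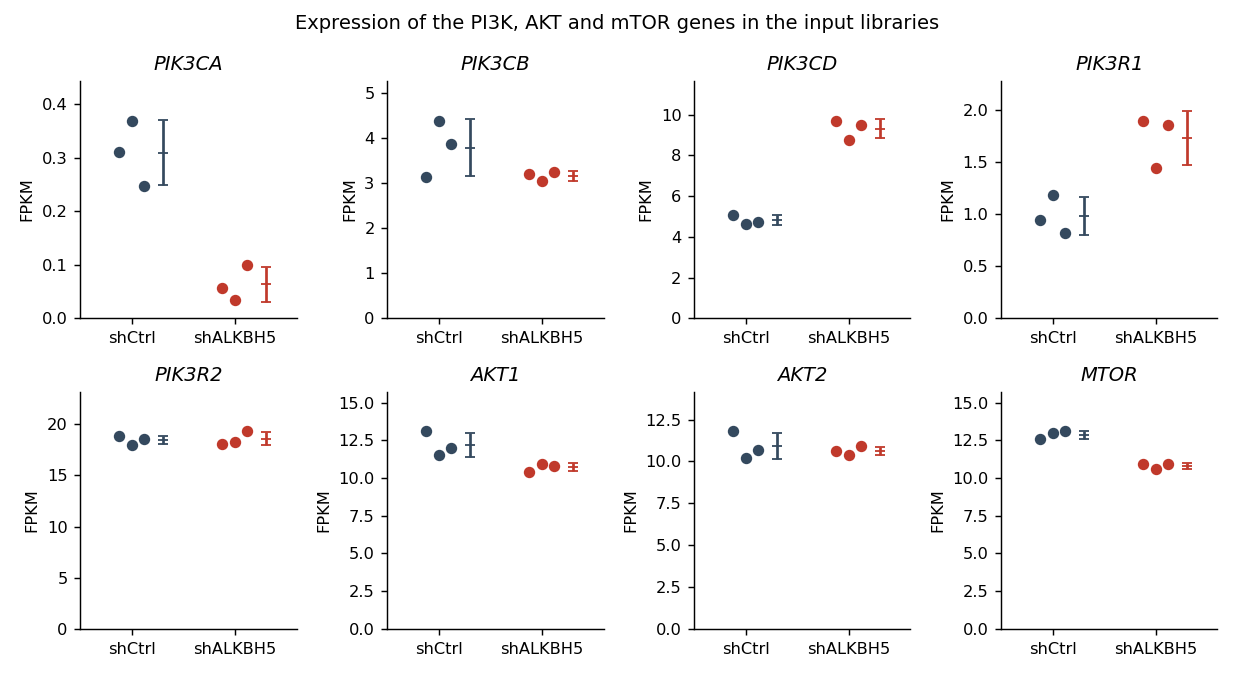
FPKM of the 8 genes in the 3 shCtrl and the 3 shALKBH5 input libraries, on linear axes that start at 0 and differ between panels. Points are libraries, and bars give the mean ± SD of each group (n = 3). PIK3CD and PIK3R1 lie higher and MTOR, AKT1 and PIK3CA lower in every shALKBH5 library, and the groups overlap for PIK3CB, PIK3R2 and AKT2.

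The catalytic subunits were examined first. PIK3CD encodes the delta catalytic subunit, best known from leukocytes (ENSG00000171608, chr1:9651731-9729114, plus strand). In the order of the replicate numbers, used throughout, the shALKBH5 libraries read 9.71, 8.77 and 9.48 FPKM and the shCtrl libraries 5.08, 4.63 and 4.72 FPKM. Every shALKBH5 library lay above every shCtrl library, and the lowest of the former was far from the highest of the latter. The means were 9.32 ± 0.489 and 4.81 ± 0.24 FPKM (SD, n = 3), a 1.94-fold difference. The log2 fold change was 0.94 (standard error 0.0641, 95% interval 0.79 to 1.09, adjusted p = 1.73e-05 from limma). Of all tested genes, 13.9% had a larger change in either direction. The call held in all 13 alternative fits, with log2 fold changes of 0.83 to 0.98.

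The locus of PIK3CD also holds an antisense gene, PIK3CD-AS2 (chr1:9672426-9687555, minus strand). PIK3CD-AS2 lay between 5.98 and 6.47 FPKM in shALKBH5 and between 3.52 and 4.14 FPKM in shCtrl, and the log2 fold change was 0.68 (adjusted p = 0.000179 from limma, standard error 0.0748). It rose in the same direction as its sense partner. The library kit marks strand, but no source used here states whether strand was used in counting, so reads of the pair may not have been separated, and this was not tested. At the other end, CLSTN1 overlaps PIK3CD on the minus strand and had a log2 fold change of -0.10 (adjusted p = 0.127 from limma).

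PIK3CB encodes the beta catalytic subunit, which is expressed in most tissues (ENSG00000051382, chr3:138652698-138834928, minus strand). The shALKBH5 libraries were at 3.2, 3.03 and 3.24 FPKM and the shCtrl libraries at 3.12, 4.38 and 3.85 FPKM. The groups overlapped, because shCtrl replicate 1 lay among the shALKBH5 values and apart from the other two control libraries. The means were 3.16 ± 0.111 and 3.78 ± 0.633 FPKM (SD, n = 3). The log2 fold change of -0.24 (95% interval -0.52 to 0.04) did not pass the threshold (adjusted p = 0.120 from limma). Without shCtrl replicate 1 it was -0.37 and passed (adjusted p = 0.00904 from limma), and it also passed, at -0.31, when each library was rescaled by its median ratio (adjusted p = 0.0364 from limma).

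PIK3CA encodes the alpha catalytic subunit, the one most often mutated in solid tumours (ENSG00000121879, chr3:179148114-179240093, plus strand). It was listed at 0.0565, 0.0344 and 0.0994 FPKM in shALKBH5 and at 0.311, 0.369 and 0.247 FPKM in shCtrl. The highest shALKBH5 value was under the lowest shCtrl value, but every library was under the mean of 0.5 FPKM that the test required. The means were 0.0634 ± 0.0331 and 0.309 ± 0.0609 FPKM (SD, n = 3), 4.87-fold lower in shALKBH5 (p = 0.1 in a two-sided exact permutation test, which cannot go lower with 3 libraries per group). On the log2(FPKM + 0.1) scale, which understates the change of a gene this low, the difference was -1.33, and it moved to -2.20 with a pseudocount of 0.01 and to -0.30 with a pseudocount of 1. In a fit of all 29696 genes with no filter it was called (standard error 0.225, adjusted p = 0.00731 from limma), where 27.7% of genes were called. How many fragments lie behind these low values is unknown.

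Of the regulatory subunits, which stabilise the catalytic subunits and dock them to receptors, 1 of 2 rose. PIK3R1 (ENSG00000145675, chr5:68215756-68301821, plus strand) was at 1.9, 1.44 and 1.86 FPKM in shALKBH5 and at 0.948, 1.18 and 0.815 FPKM in shCtrl. The groups did not overlap, although shALKBH5 replicate 2 and shCtrl replicate 2 lay nearer to each other than the rest. The means were 1.73 ± 0.258 and 0.98 ± 0.182 FPKM (SD, n = 3), a 1.77-fold difference. The log2 fold change was 0.77 (standard error 0.164, 95% interval 0.38 to 1.15, adjusted p = 0.00506 from limma), and the call held in all 13 alternative fits, with log2 fold changes of 0.46 to 0.89.

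PIK3R2 (ENSG00000105647, chr19:18153163-18170532, plus strand) was the most abundant of the 8 genes in both groups. It was at 18.1, 18.3 and 19.3 FPKM in shALKBH5 and at 18.8, 18.0 and 18.5 FPKM in shCtrl. The groups overlapped almost entirely. The means were 18.6 ± 0.65 and 18.4 ± 0.361 FPKM (SD, n = 3), and the log2 fold change was 0.01 (95% interval -0.09 to 0.11, adjusted p = 0.855 from limma). Its sign turned under rescaling (-0.06), without shALKBH5 replicate 3 (-0.018) and without shCtrl replicate 2 (-0.0048). A readthrough gene listed as AC007192 covers PIK3R2 on the same strand and ranged from 0.00169 to 0.81 FPKM with no order by group, so the split of reads between these 2 entries is uncertain.

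The AKT kinases, which carry the lipid signal to metabolism, survival and mTOR, changed little. AKT1 (ENSG00000142208, chr14:104769349-104795751, minus strand) was at 10.4, 10.9 and 10.8 FPKM in shALKBH5 and at 13.1, 11.5 and 12 FPKM in shCtrl. The groups did not overlap, but their nearest libraries were close. AKT1 fell by 12.1%, from 12.2 ± 0.797 to 10.7 ± 0.259 FPKM (SD, n = 3), or -0.18 on the log2 scale (standard error 0.0587, 95% interval -0.32 to -0.05, adjusted p = 0.0289 from limma). This call held in 6 of 13 alternative fits. It was lost with no filter (adjusted p = 0.0548 from limma), with the replicate number as a block (adjusted p = 0.0681 from limma) and without a trend in the variance (adjusted p = 0.0517 from limma). It was also lost without shALKBH5 replicate 1, 2 or 3 (adjusted p = 0.0967, 0.0551 and 0.0683 from limma) or shCtrl replicate 3 (adjusted p = 0.0629 from limma).

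AKT2 (ENSG00000105221, chr19:40230317-40285536, minus strand) was at 10.6, 10.4 and 10.9 FPKM in shALKBH5 and at 11.8, 10.2 and 10.7 FPKM in shCtrl. The groups overlapped, with the lowest and the highest value both in shCtrl. The means were 10.6 ± 0.238 and 10.9 ± 0.78 FPKM (SD, n = 3), and the log2 fold change was -0.04 (95% interval -0.18 to 0.11, adjusted p = 0.628 from limma). Without shCtrl replicate 1 its sign turned, at 0.018.

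MTOR encodes the kinase shared by the complexes mTORC1, which drives protein synthesis, and mTORC2, which phosphorylates AKT (ENSG00000198793, chr1:11106535-11262551, minus strand). It was at 10.9, 10.6 and 10.9 FPKM in shALKBH5 and at 12.6, 13.0 and 13.1 FPKM in shCtrl. The groups were narrow and did not overlap. MTOR fell by 16.1%, from 12.9 ± 0.276 to 10.8 ± 0.202 FPKM (SD, n = 3), or -0.25 on the log2 scale (standard error 0.044, 95% interval -0.35 to -0.15, adjusted p = 0.00191 from limma). The call held in all 13 alternative fits. The change was small beside those of other genes, since 63.6% of tested genes had a larger one.

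FPKM is scaled by length, so levels can be set in order across genes. In both groups the order from high to low was PIK3R2, MTOR, AKT1, AKT2, PIK3CD, PIK3CB, PIK3R1 and PIK3CA. MTOR and AKT1, and AKT1 and AKT2, overlapped between libraries in each group and were not separated by their spread. The other neighbours did not overlap in either group. The order was thus the same in both groups, while the distances within it changed.

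These distances were measured as ratios within each library, which do not depend on how the library was scaled. The groups of each of the 5 ratios computed did not overlap, so each had the smallest p of the exact permutation test (two-sided, p = 0.1, also 0.1 after Benjamini-Hochberg adjustment over the 5 ratios). Each ratio holds at least 1 gene whose own groups did not overlap, as was so for 67% of tested genes, so this count is no result apart from those genes. The PIK3CD level over the PIK3CB level was 3.03, 2.9 and 2.93 in shALKBH5 and 1.63, 1.06 and 1.23 in shCtrl, a log2 difference of 1.20. PIK3CD thus had the higher FPKM of the pair in every library, and by more in shALKBH5. As a share of the summed FPKM of the 3 catalytic genes, PIK3CD made up 74.9%, 74.1% and 74.0% in shALKBH5 and 59.7%, 49.4% and 53.5% in shCtrl. PIK3CB made up 25.2 ± 0.457% and 42.3 ± 5.17%, and PIK3CA 0.501 ± 0.249% and 3.46 ± 0.589% (SD, n = 3). The catalytic sum itself was 12.5 ± 0.615 FPKM in shALKBH5 and 8.90 ± 0.439 FPKM in shCtrl (SD, n = 3).

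The regulatory genes did not keep pace with this sum. PIK3R1 and PIK3R2 together over the 3 catalytic genes gave 1.54, 1.67 and 1.65 in shALKBH5 and 2.32, 2.05 and 2.19 in shCtrl, a log2 difference of -0.43. In every library the regulatory transcripts remained in excess. PIK3R1 over PIK3R2 was 0.105, 0.0784 and 0.0966 in shALKBH5 and 0.0506, 0.0652 and 0.0441 in shCtrl, a log2 difference of 0.82. AKT1 over AKT2 was 0.986, 1.05 and 0.989 in shALKBH5 and 1.11, 1.12 and 1.12 in shCtrl. This log2 difference of -0.15 was small, and the control ratios were nearly identical between libraries.

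**Figure D2:**
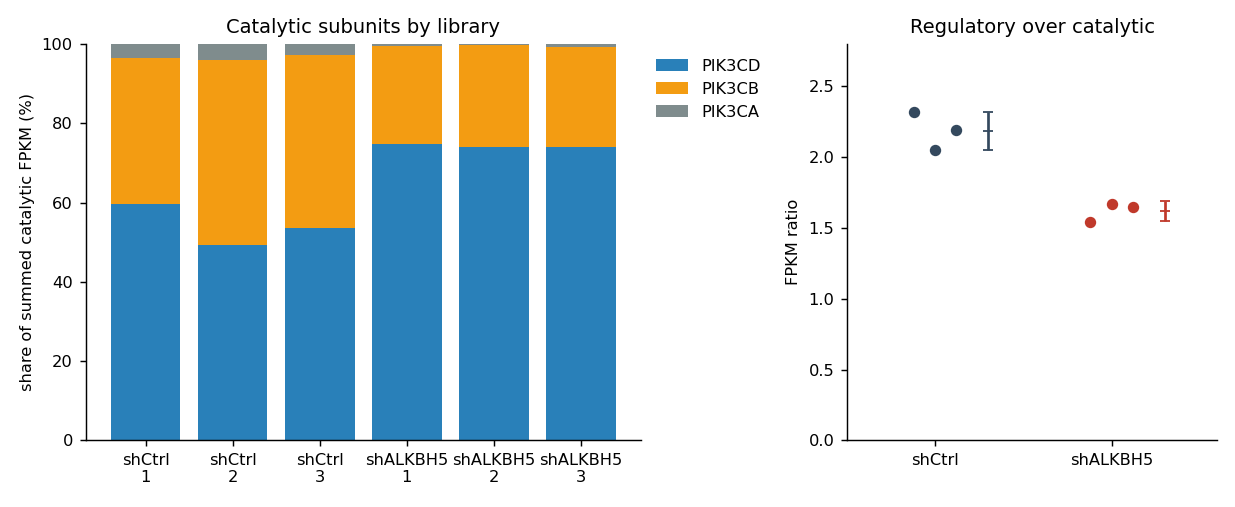
Left, the share of each catalytic gene in the summed FPKM of PIK3CA, PIK3CB and PIK3CD, in percent, for each input library. Right, the FPKM of PIK3R1 and PIK3R2 together over that of the 3 catalytic genes, with 1 point per library and bars for the mean ± SD (n = 3). The PIK3CD share is at 74.0% to 74.9% in shALKBH5 and at 49.4% to 59.7% in shCtrl, and the regulatory ratio is lower in every shALKBH5 library.

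The genes whose pattern over the 6 input libraries was most like that of PIK3CD, by Pearson's r of log2(FPKM + 0.1), included FAM189B, ZNF746, TNPO2 and CREB3, each at r = 0.999. FAM189B, for one, was at 22.3 FPKM in shALKBH5 and 13.5 FPKM in shCtrl on average. Such a likeness was common, since 2113 of 12871 genes reached r above 0.95 and the 6 points share their libraries and fall into 2 groups.

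The surrounding pathway was described with 9 lists of genes upstream, beside and downstream of the kinases. Of 120 genes in these lists, 107 were tested, and 40 rose, 35 fell and 32 did not pass the threshold. With rescaled libraries the balance turned, to 33 higher and 40 lower. The share called, 70.1%, compares with 61% of all tested genes, and the median log2 fold change of the lists was 0.01 against 0.09 over all tested genes. The counts of each list below stand beside 34.7% of all tested genes called higher and 26.2% called lower. Values given as ± below are SDs of 3 libraries.

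**Figure D3:**
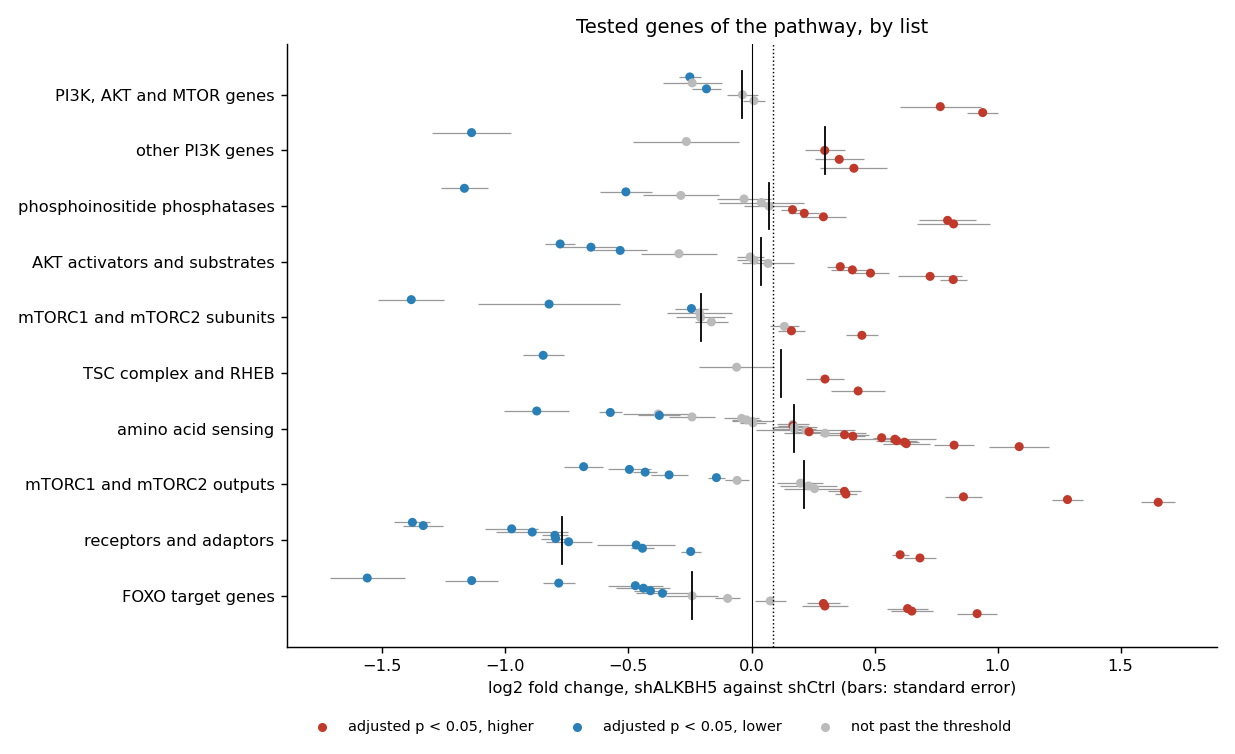
Log2 fold change (shALKBH5 against shCtrl) of each tested gene of the pathway lists, with its standard error. Red and blue points had an adjusted p-value under 0.05 and were higher or lower in shALKBH5, and grey points did not pass. Black ticks give the median of each list and the dotted line the median of all tested genes, 0.09. The first row holds the 7 tested core genes, and most receptors and adaptors lie to the left of zero, with a list median of -0.77.

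Upstream, the receptors and adaptors that feed PI3K fell more often than they rose. Of 12 tested genes, 10 fell and 2 rose, beside 26.2% and 34.7% of all tested genes, and the list median was -0.77. PDGFRB, a receptor tyrosine kinase, fell from 7.25 ± 0.52 to 2.73 ± 0.13 FPKM (SD, n = 3; log2 fold change -1.38, adjusted p = 5.57e-06 from limma). FGFR1, a receptor for fibroblast growth factors, fell from 3.19 ± 0.122 to 1.21 ± 0.066 FPKM (log2 fold change -1.33). AXL, IRS1, EGFR, GAB2, INSR, MET, ERBB2 and IGF1R were the others that fell, with log2 fold changes between -0.97 and -0.25. The exceptions were ERBB3, a neuregulin receptor rich in docking sites for PI3K, and IRS2, an adaptor of the insulin and IGF receptors. ERBB3 rose from 54.7 ± 1.1 to 83.2 ± 1.44 FPKM (log2 fold change 0.60, adjusted p = 8.38e-06 from limma), and IRS2 from 13.7 ± 1.12 to 22.0 ± 0.285 FPKM (log2 fold change 0.68, adjusted p = 7.70e-05 from limma).

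Among the other PI3K genes, 5 of 11 were tested, and 3 rose and 1 fell. PIK3R3, another class I regulatory subunit, fell from 2.69 ± 0.562 to 1.16 ± 0.142 FPKM (log2 fold change -1.14, adjusted p = 0.000611 from limma), opposite to PIK3R1. PIK3R4 and PIK3C3, partners in the class III complex that acts in autophagy and endosomal traffic, had log2 fold changes of 0.36 and 0.42 (adjusted p = 0.0167 and 0.0309 from limma). The call of PIK3R4 was lost without shALKBH5 replicate 1 (adjusted p = 0.0593 from limma). That of PIK3C3 was lost with the replicate number as a block, with no filter, and without shALKBH5 replicate 1 or 2 or shCtrl replicate 1 or 3. The number called in this list was 2 with the block, and 1, 2 and 2 without shALKBH5 replicate 1, shALKBH5 replicate 2 and shCtrl replicate 3. PIK3CG, a class I catalytic gene of leukocytes, did not exceed 0.0851 FPKM in any library.

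Of 11 phosphatases that oppose PI3K and AKT, 5 rose and 2 fell, with a median of 0.07. The share called, 63.6%, was near the 61% of all tested genes. PHLPP1 and PHLPP2, related phosphatases of AKT, went opposite ways. PHLPP1 fell from 2.41 ± 0.152 to 1.02 ± 0.0523 FPKM (log2 fold change -1.17), while PHLPP2 rose from 1.28 ± 0.146 to 2.29 ± 0.209 FPKM (log2 fold change 0.80). INPP5D, a lipid phosphatase best known from blood cells, had a log2 fold change of 0.82 at a level of 0.769 FPKM or less on average. With rescaled libraries, 4 genes of this list were called in place of 7.

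Of 12 tested activators and substrates of AKT, 5 rose and 3 fell, with a median of 0.04. AKT1S1, which encodes the mTORC1 inhibitor PRAS40, rose from 20.6 ± 1.47 to 36.3 ± 0.269 FPKM (SD, n = 3; log2 fold change 0.82, adjusted p = 1.64e-05 from limma). TBC1D1 and TBC1D4, AKT substrates in glucose transport, fell, with log2 fold changes of -0.78 and -0.65. PDPK1, the kinase that activates AKT, had a log2 fold change of 0.01 and did not pass the threshold.

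Around MTOR itself, 2 of 9 tested subunits and partners of the mTOR complexes rose and 3 fell, with a median of -0.21. The number called in this list moved with the settings, with 3 genes in place of 5 under no filter, a filter at 1 FPKM, the block, no trend, and without shALKBH5 replicate 2 or 3 or shCtrl replicate 2 or 3. MAPKAP1, an mTORC2 subunit, rose from 13.6 ± 0.919 to 18.6 ± 0.868 FPKM (log2 fold change 0.45, adjusted p = 0.000647 from limma). RPTOR, the defining subunit of mTORC1, had a log2 fold change of 0.16 (adjusted p = 0.0352 from limma), which was 0.09 with rescaled libraries (adjusted p = 0.299 from limma). Its call was also lost with no filter (adjusted p = 0.0502), the block (adjusted p = 0.0826) and no trend (adjusted p = 0.0537 from limma), and without shALKBH5 replicate 1, 2 or 3 or shCtrl replicate 2 or 3, where the adjusted p from limma reached 0.118. PRR5L, an mTORC2 partner, fell from 1.33 ± 0.118 to 0.447 ± 0.0357 FPKM (log2 fold change -1.38). DEPTOR, an inhibitor of mTOR, had a log2 fold change of -0.82 (adjusted p = 0.0408 from limma) with groups that overlapped. The DEPTOR call was lost with no filter (adjusted p = 0.114), the block (adjusted p = 0.0681) and no trend (adjusted p = 0.0518 from limma), and without shALKBH5 replicate 2 or 3 or shCtrl replicate 2 or 3, where the adjusted p from limma reached 0.127. RICTOR, the defining subunit of mTORC2, was under the filter at 0.487 ± 0.101 and 0.405 ± 0.0768 FPKM (SD, n = 3).

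RHEB, the small GTPase that switches mTORC1 on, was at 5.99, 5.59 and 7.00 FPKM in shALKBH5 and at 10.9, 11.2 and 11.4 FPKM in shCtrl. It fell in the test (log2 fold change -0.85, standard error 0.0834, adjusted p = 0.000102 from limma), and the groups lay far apart. TSC1 and TBC1D7, subunits of the complex that switches RHEB off, rose, with log2 fold changes of 0.30 and 0.43 (adjusted p = 0.0108 and 0.0115 from limma). TSC2, its catalytic subunit, had a log2 fold change of -0.01 and did not pass the threshold.

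Amino acids reach mTORC1 through sensors and the Rag GTPases on the lysosome. Of 25 tested genes of this arm, 11 rose, 3 fell and 11 did not pass, and the median was 0.17. The share called was 56%, beside 61% of all tested genes. CASTOR1, an arginine sensor that restrains mTORC1, rose from 1.02 ± 0.148 to 2.28 ± 0.16 FPKM (log2 fold change 1.09). SESN2, a leucine sensor with the same sign of action, rose from 13.9 ± 1.44 to 24.6 ± 1.41 FPKM (log2 fold change 0.82, adjusted p = 9.93e-05 from limma). Its relative SESN3 fell (log2 fold change -0.87), as did LAMTOR5 (log2 fold change -0.57), a subunit of the scaffold that holds the Rag GTPases. Of that scaffold, LAMTOR1, LAMTOR3 and LAMTOR4 rose, while LAMTOR2 did not pass the threshold (log2 fold change 0.0058, adjusted p = 0.931 from limma).

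Of 14 tested genes that act directly below the mTOR complexes, 5 rose and 5 fell, with a median of 0.22. EIF4EBP2, a repressor of translation that mTORC1 inactivates, rose from 3.88 ± 0.319 to 12.4 ± 0.129 FPKM (SD, n = 3; log2 fold change 1.65, adjusted p = 1.86e-06 from limma). ULK1, an autophagy kinase that mTORC1 holds inactive, rose from 2.65 ± 0.147 to 6.59 ± 0.129 FPKM (log2 fold change 1.28, adjusted p = 4.21e-06 from limma). EIF4B, a translation initiation factor, fell from 112 ± 11.5 to 69.6 ± 3.6 FPKM (log2 fold change -0.68), and GRB10, an adaptor that mTORC1 stabilises, had a log2 fold change of -0.50 (adjusted p = 0.0019 from limma).

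AKT keeps the FOXO transcription factors out of the nucleus, so genes known to be activated by FOXO were listed as a transcriptional readout. Of 15, 5 rose and 7 fell, with a median of -0.24, and the share called was 80%, beside 61% of all tested genes. TXNIP and FBXO32 rose, with log2 fold changes of 0.92 and 0.65, and CCNG2 and KLF6 fell, with log2 fold changes of -1.56 and -1.14.

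The m6A peaks of the 8 genes were read from 1 list per group, in which each peak carries the authors' fold enrichment, the ratio of IP to input. There were no values per IP library, so no difference between the lists was tested. All 8 genes had a peak in both lists, as had 86% of the tested genes in the shALKBH5 list and 85.5% in the shCtrl list. They held 29 of 46039 peaks in the shALKBH5 list and 25 of 44304 in the shCtrl list. At a fold enrichment of at least 2 and a false discovery rate of at most 0.01, 20 and 19 of them remained. In the shALKBH5 list 15 of the 29 were placed in 3'UTR, 9 in 5'UTR, 4 in introns and 1 in an exon, and in the shCtrl list 13 of the 25 were in 3'UTR and 9 in 5'UTR. Peaks in 3'UTR, where m6A is known to be dense, were found in 7 of the 8 genes in each list, the exception being AKT1. The same held for 68.7% and 67.8% of the tested genes. Each peak of PIK3R2, other than 1 in an intron, was listed a second time with slightly shifted coordinates, and such a pair was taken once in the comparison of the lists.

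Several peaks in 5'UTR or exons reached a transcription start site, where the antibody can also bind m6Am, a related mark of the first transcribed base. To show these starts, 30 bases around each RefSeq start site (GRCh38.p14) that lay inside the interval of a peak are printed 5' to 3' on the strand of the gene, with the first 15 transcribed bases in capitals.
PIK3CA, chr3:179148342-179148371, plus strand, covered in both lists: gaagtagaaagcggcAGTTCCGGTGCCGCC
PIK3CB, chr3:138834914-138834943, minus strand, covered in both lists: gaggctggcgcgcgcGCACACGGGCGCGGG
PIK3R1, chr5:68215741-68215770, plus strand, covered in both lists: ggcgcacggagaggaGTCGCCAGCAGCTGG
PIK3R2, chr19:18153148-18153177, plus strand, covered in both lists: cgccgggggcgggccAGGCCGCTCGGAACC
AKT2, chr19:40285331-40285360, minus strand, covered in both lists: ggcggggggggccgcGCCGTGCTAGCCGTT
MTOR, chr1:11262537-11262566, minus strand, covered in the shALKBH5 list only: aaccctccttccctcGCTCCCGGCTTAGAG
The first transcribed base was A in PIK3CA and PIK3R2 and G in the others. The peaks at the PIK3CA and PIK3R1 starts, and that of PIK3CB in the shCtrl list, span 50597 to 64693 bases of the genome. The lists give only their outer ends, so for these it cannot be read whether the start itself was enriched.

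Because FOXO factors also act on genes of this pathway, the RefSeq promoter windows of the 8 genes, 16 windows of 300 bases in all, were searched on both strands for the FOXO-type motif GTAAACA. It was found in 1 window, that of PIK3CA, as its reverse complement on the plus strand at chr3:179148198-179148224, printed with the motif in capitals: gttcgttgttTGTTTACacgatgtgag. The first base of the motif was at position -149 from the RefSeq start. Of all 35116 promoter windows, 3.42% held this motif on either strand. The E-box CACGTG and the site TGACGTCA were in 7.26% and 1.85% of all windows and in none of the 16. A match of letters is a description and not a site of binding.

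Peaks of the lists that overlapped by at least 1 base on the same strand were paired one to one, each with the peak it shared most bases with, which gave 19 pairs over the 8 genes. Besides the second listings of PIK3R2, this left out 2 shCtrl peaks that lay inside an shALKBH5 peak already paired, 1 in the 5'UTR of PIK3CA and 1 in the 3'UTR of AKT2 (fold enrichment 1.55), so the counts by direction depend on this choice. Of these, 6 had a higher fold enrichment in the shALKBH5 list and 13 a lower one, with a median log2 ratio of -0.12. Over all 30898 pairs, 14191 were higher and 16555 lower, with a median of -0.05. A log2 ratio above 1 in size was seen in 1 of the 19 pairs (5.26%), against 17.6% of all pairs.

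**Figure D4:**
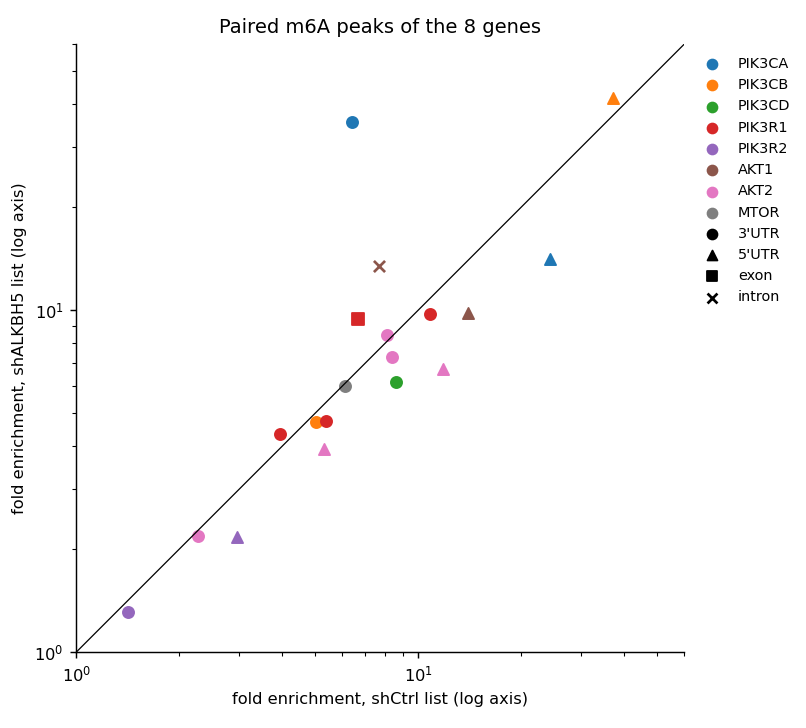
Fold enrichment of IP over input for the 19 paired peaks, in the shCtrl list (x axis) and the shALKBH5 list (y axis), both on log scales. Colours mark genes, shapes mark the region, and the line marks equal enrichment. Most points lie near the line, and the 3'UTR pair of PIK3CA stands away from it at 35.5 against 6.38.

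That pair was in the 3'UTR of PIK3CA, with a fold enrichment of 35.5 at chr3:179229577-179234724 in the shALKBH5 list and of 6.38 at chr3:179230310-179234604 in the shCtrl list, a ratio of 5.56. In the 5'UTR of PIK3CA the direction depended on the pairing. The shALKBH5 peak, at a fold enrichment of 14.1, was paired with a shCtrl peak at 24.3 (log10 p -5.73), but it also covers a second shCtrl peak at chr3:179198770-179199040, at 5.11 (log10 p -11.6). Fold enrichment is divided by the input, and the input level of PIK3CA was the lowest of the 8 genes, at 0.0634 FPKM on average in shALKBH5, and the larger fold came with a weaker log10 p (-18.1 against -37.1). The part of the low input in this ratio was not tested.

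For the genes that rose, enrichment did not move in a shared direction. The 3'UTR peak of PIK3CD had a fold enrichment of 6.15 at chr1:9724812-9727501 in the shALKBH5 list and of 8.59 at chr1:9724842-9727531 in the shCtrl list, a ratio of 0.716. A 5'UTR peak of PIK3CD at chr1:9691838-9710208 had a fold enrichment of 4.11 and was in the shALKBH5 list only. PIK3R1 had 3 paired 3'UTR peaks, at fold enrichments of 4.33, 9.75 and 4.75 in the shALKBH5 list and of 3.93, 10.8 and 5.36 in the shCtrl list. Its exon peak at the start of the gene was at 9.39 against 6.68.

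MTOR carried 1 peak of nearly equal fold enrichment in its 3'UTR, 5.98 in the shALKBH5 list and 6.1 in the shCtrl list. A 5'UTR peak at chr1:11262461-11262551 (fold enrichment 3.08) and an intron peak were in the shALKBH5 list only. AKT1, with no 3'UTR peak, had an intron pair at 13.5 against 7.66 and a 5'UTR pair at 9.8 against 14, of which only 1 peak of each pair passed the stricter threshold.

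The genes that did not pass the expression test had pairs close to the line of equal enrichment or below it. PIK3CB was at 4.72 against 5.03 in the 3'UTR and at 41.6 against 37 in the 5'UTR. AKT2 was at 8.45 against 8.09, 7.28 against 8.4 and 2.18 against 2.27 in its 3'UTR, and at 3.92 against 5.29 and 6.74 against 11.8 in its 5'UTR. PIK3R2, the most abundant transcript, had the pair of lowest enrichment, at 1.31 against 1.42 in its 3'UTR, and was at 2.17 against 2.96 in its 5'UTR.

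The authors' table of peaks compared between the groups lists 6513 positions, and 6 of them lie in 4 of these genes. They are the 5'UTR and 3'UTR of PIK3CA, the 3'UTR of PIK3CD, the exon peak of PIK3R1, and a 5'UTR position of PIK3R2 that is listed with 2 sets of coordinates. PIK3CB, AKT1, AKT2 and MTOR have none. Of all 11540 tested genes with a peak, 36.7% have a position in this table, and only the positions were used here.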

How the data were processed

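RNA of A375 cells with shALKBH5 or shCtrl was sequenced in 3 input and 3 IP libraries per group, and samples were grouped by their labels. The authors deposited expression as FPKM per input library, with no counts. Depth is therefore unknown, and 3 libraries per group limit the precision. They also deposited 1 peak list per group, in which replicates were pooled or called together, with a fold enrichment (a ratio of IP to input) for each peak. The log10 p and log10 false discovery rate deposited beside it were used as a score for peaks. The aligner, counter and peak caller are not given in the sources used here, which name edgeR for expression. The submitters' processing notes name the mouse build mm10, but the samples are human, and the RefSeq start site in GRCh38.p14 equals the start of the authors' gene for 5 of the 8 genes. Columns with the authors' own fold changes, p-values and false discovery rates between the groups were not used, and their table of compared peaks served for positions only.

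Because no counts were at hand, expression was compared by limma (version 3.58.1, R 4.3.3) on log2(FPKM + 0.1), with a linear model per gene, moderated variances that follow a trend with level, two-sided p-values and Benjamini-Hochberg adjustment. Genes under a mean of 0.5 FPKM were left out. The script was tested on simulated data. Ratios within libraries were compared by exact permutation tests with scipy 1.17.1 in Python 3.11.15. Peak starts were changed to count from 1, and peaks sharing 1 base or more of a strand were taken as overlapping. No 2 libraries shared more than 0.123% of their values. In each list the text names the 2 genes with the largest increase and the 2 with the largest decrease past the threshold, together with the 8 genes, ALKBH5, and the 5 genes most like PIK3CD. Some genes under this rule are not reported here. PIK3CG, PDPK1, RICTOR, TSC2, LAMTOR1, LAMTOR2, LAMTOR3, LAMTOR4, the further receptors and the overlapping genes were named after their values were seen. The 8 genes and the lists were chosen with earlier results of these data known. Tried as alternatives were median ratio rescaling, no filter or one at 1 FPKM, pseudocounts of 0.01 and 1, the replicate number as a block, no trend, each library left out in turn, stricter peaks and a reciprocal overlap of 50%. Values of single IP libraries, protein sequences and genome sequence other than the RefSeq promoter windows were not used here.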

Additional observations from a re-analysis of the deposited data

How the results depend on the processing

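Recomputed values covered the 8 genes, the 5 ratios, the list totals and the peak counts. Of these, 163 were taken as kept, 7 lost a call, 2 gained one, 4 reversed and 3 moved further. Tested fold changes were kept when they held their direction and their side of the threshold. Ratios and the values of PIK3CA were kept when they moved by less than the spread. Counts were kept when they stayed within a fixed fold of the main count. The rescaled list totals of 33 higher and 40 lower, in place of 40 and 35, are therefore among the 163. PIK3CD, PIK3R1 and MTOR kept their calls under every alternative run. Rescaling each library by its median ratio shifted the median log2 fold change of all tested genes from 0.0868 to 0.0152. PIK3CB then passed at -0.31 (adjusted p = 0.0364 from limma) and PIK3R2 reversed to -0.065. AKT1, at -0.18, lost its call with no filter (adjusted p = 0.0548), with the replicate block (adjusted p = 0.0681) and with no trend (adjusted p = 0.0517 from limma). PIK3CA, for which only the fit with no filter gives a test, moved to -2.20 with a pseudocount of 0.01 and to -0.30 with a pseudocount of 1. The log2 difference of PIK3CA over PIK3CB moved from -2.15 to -1.09 when 0.1 was added to each FPKM. The cause of these changes was not tested, other than that a pseudocount weighs most on low values.

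Leaving out 1 library at a time, the log2 fold change ran from -0.37 to -0.13 for PIK3CB, from -0.018 to 0.029 for PIK3R2, from -0.22 to -0.13 for AKT1, from -0.081 to 0.018 for AKT2 and from -1.49 to -1.20 for PIK3CA. PIK3R2 was at -0.018 without shALKBH5 replicate 3 and at -0.0048 without shCtrl replicate 2, and AKT2 was at 0.018 without shCtrl replicate 1. A fit that leaves 2 libraries in a group takes their spread partly from the other genes. Of the list genes named, PIK3C3, PIK3R4, RPTOR and DEPTOR lost their call under 23 of the settings in all.

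Replicate numbers are shared between the groups, but libraries of the same number did not deviate together (r = 0.0181, -0.0462 and 0.0591 across tested genes). Whether they were handled together was not tested. With the replicate number as a block, 7271 genes were called in place of 7917, and 3 of the 7 tested kinase and subunit genes in place of 4. The stricter peak threshold left 20 of 29 and 19 of 25 peaks, and a reciprocal overlap of 50% paired 20 and 20 in place of 21 and 23. Since depth is unknown, how precisely PIK3CA was measured is unknown too.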

Other observations

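The expression table carries its own pathway annotation. Among genes annotated there to the KEGG PI3K-Akt signaling pathway, with the 8 genes left out, 202 of 295 were tested, of which 48 rose and 93 fell (69.8% called, median log2 fold change -0.16). This list is wider than the ones above, since it also takes in ligands, integrins and matrix genes. Among genes annotated to the KEGG mTOR signaling pathway, 110 of 133 were tested, of which 36 rose and 29 fell (59.1% called, median log2 fold change 0.08). Over all tested genes 61% were called and the median was 0.09. Both lists were added after the values had been seen.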
